A study of Mus musculus with 6 samples.

Results

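The 9 genes described here have been linked in mice to the building of lymphatic valves or to the planar cell polarity that valve cells use: Foxc1, Foxc2, Itga9, Gja1, Celsr1, Vangl2, Fat4, Dchs1 and Piezo1. They were taken by symbol from a table of 18404 genes, and all 9 were found and had enough reads to be tested. The samples were ear skin collected from mice on postnatal day 3. The ecko group (3 libraries) carried an induced endothelial deletion of Kdr, the gene of the VEGF-A receptor VEGFR2. The control group (3 libraries) is recorded as littermates whose genotype the sample titles do not give. Tamoxifen is recorded for both groups, at 60 µg per day from postnatal day 1, and the name of the series gives the interval as 48 h. The Cre driver is not given in the sources used here, nor is it stated whether each library is a separate animal. The p-values therefore measure the spread between these libraries, which may be technical in part.

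Lymphatic valves are pairs of leaflets inside collecting vessels that stop lymph from flowing back. Disturbed flow raises the transcription factors FOXC2 and GATA2 in cells of a future valve that are rich in PROX1, and these cells then reorient across the vessel, deposit a fibronectin-rich matrix and form leaflets. Reorientation draws on the planar polarity proteins CELSR1 and VANGL2 and on the large cadherins FAT4 and DCHS1, leaflet growth on integrin alpha9, and flow sensing on the channel PIEZO1. None of the 9 genes is specific to lymphatic vessels, because epidermis, hair follicles, dermal fibroblasts or muscle of the skin also express most of them. The levels below therefore cover every cell type in the ear.

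FOXC1 and FOXC2 are forkhead paralogs, so it matters for their values whether a read can be told apart between them. The coding stretch of 120 bases in which they are most alike is shown for that reason, from the GENCODE M21 transcripts of GRCm38. It lies at chr13:31807619-31807738 in Foxc1 and at chr8:121117005-121117124 in Foxc2, both on the plus strand and in exon sequence. Capitals mark the bases that differ.
Foxc1: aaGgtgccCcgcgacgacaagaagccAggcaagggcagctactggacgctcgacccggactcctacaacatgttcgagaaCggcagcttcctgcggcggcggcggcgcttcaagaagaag
Foxc2: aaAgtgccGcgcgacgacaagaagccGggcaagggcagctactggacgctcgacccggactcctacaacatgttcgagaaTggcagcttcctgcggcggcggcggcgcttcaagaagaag
The stretch has 116 identical and 4 differing bases, and the longest identical run between the coding sequences is 53 bases. Of all words of 50 bases in the longest transcripts, 4 were shared, out of 5795 in Foxc1 and 2676 in Foxc2. The read length is not given in the sources used here. The deposited values of both genes were whole numbers in all 6 libraries, which gives no sign that reads had been divided between them.

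The libraries held 16987130 to 17979182 expected counts each, that is, estimated reads per gene before any scaling. Kdr fell in ecko, with 348, 431 and 370 counts in ecko libraries 1 to 3 and 1599, 1860 and 1337 in control libraries 1 to 3. This was a log2 fold change of -2.05 ± 0.12 (SE; edgeR adjusted p 0.0002). Skin markers were abundant in both groups: the keratin gene Krt5 had 3288 ± 138 CPM in ecko and 3520 ± 205 CPM in control libraries, and the collagen gene Col1a1 had 8796 ± 191 and 8660 ± 732 CPM (SD, n = 3 each). CPM are counts relative to the TMM-scaled total of the library, per 1e6 counts. The lymphatic endothelial gene Prox1 had 10.8 ± 0.78 CPM in ecko and 9.21 ± 3.00 CPM in control libraries. The share of lymphatic endothelium in this RNA was not measured. Control 3 stood apart from the rest. Its chi-square per gene was 13.24 to 19.76 against the other libraries, against 4.18 to 11.47 in pairs without it, and its summed skeletal muscle markers (12 of 12 measured) were 6238 CPM, against 8577 to 10460 CPM in ecko and 9232 and 11020 CPM in the other controls. Each group also held a library almost without Y-linked reads, ecko 3 and control 2, where Ddx3y had 6 and 4 counts against 1445 to 1641 elsewhere. Neither group can therefore come from a single animal.

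None of the 9 genes passed the test between ecko and control skin. With edgeR's quasi-likelihood test adjusted over all 14920 genes tested, 0 of 9 were called, where the rule called 0.0067% of all genes (Kdr alone). The smallest adjusted p among the 9 was 0.689, and 0 had an unadjusted p under 0.05, against 9.01% of all genes. DESeq2 and limma-voom also called 0 of the 9. In 0 of the 9 were the 3 ecko libraries clear of the 3 controls in either direction, where 15.7% of all genes had groups without overlap. Log2 fold changes ran from -0.12 to 0.06, with 4 above 0 and 5 below, and a median of -0.02 against -0.002 over all genes. In absolute size the median was 0.064 for the 9 genes and 0.096 for all genes, and 42.2% of all genes had a larger change than any of the 9.

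**Figure D1:**
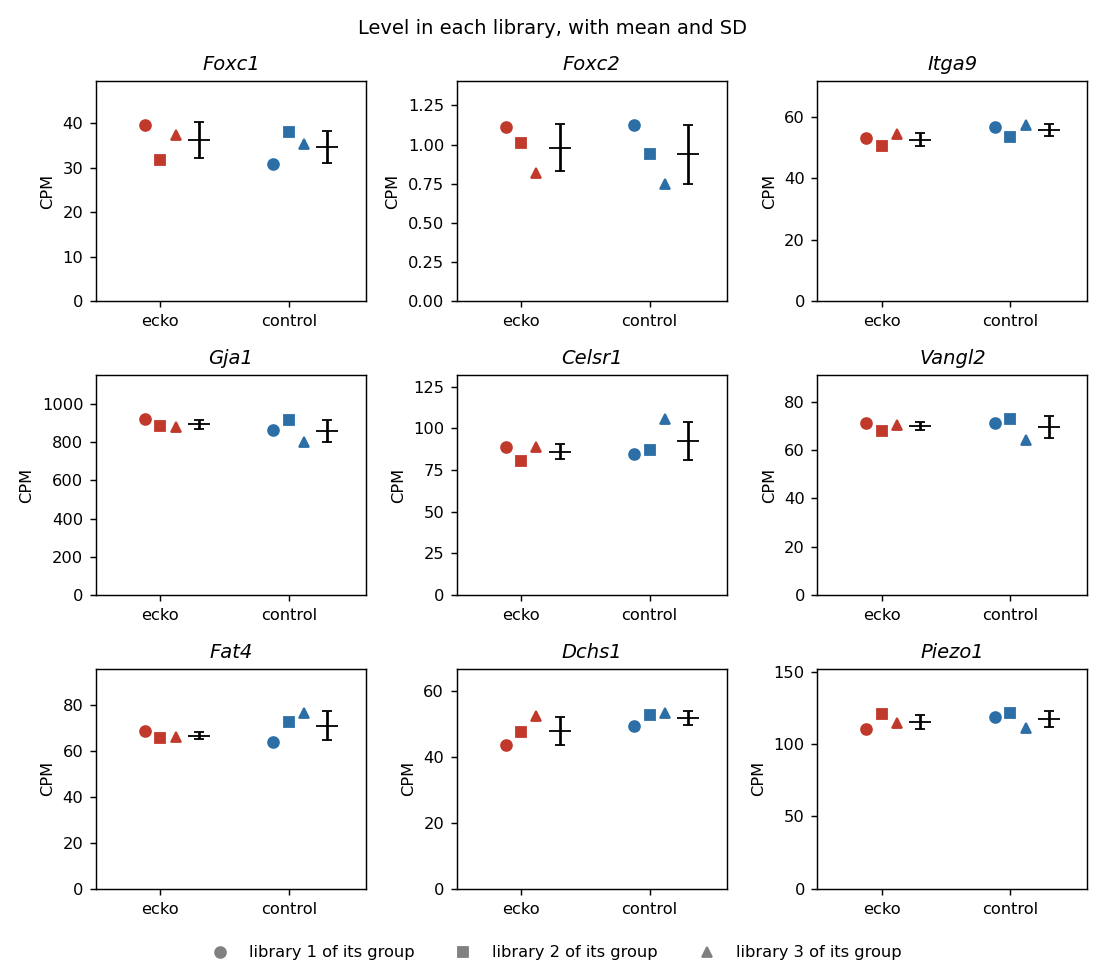
Level of each gene in CPM after TMM scaling, by library. Each symbol is 1 library, ecko in red and control in blue, with the mean and SD (n = 3) in black, and every axis starts at 0. The ecko and control libraries overlap in all 9 panels.

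Foxc2 (Entrez 14234, chromosome 8, 121116171 to 121118895 in GRCm38.p6, as all positions here) encodes the forkhead factor that is needed in lymphatic valve cells, and that is mutated in human lymphedema-distichiasis. It had 20, 18 and 14 counts in ecko libraries 1 to 3 and 20, 17 and 13 in control libraries 1 to 3. In each group 1 library lay at 20 counts and 1 at 13 or 14. These are 0.98 ± 0.149 CPM in ecko and 0.938 ± 0.187 CPM in control libraries (SD, n = 3 each), a log2 fold change of 0.06 ± 0.29 (SE; adjusted p 0.953). The 95% interval of the fold, 0.670 to 1.63, was the widest of the 9 genes. Counting error alone gives a relative spread of 24.25% at this depth, and the SD was 15.2% of the mean in ecko and 19.97% in control libraries. The interval describes the observed fold, is not adjusted over the genes tested and is not a limit of detection. The smallest change that the test would call at this depth is not given here.

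Foxc1 (Entrez 17300, chromosome 13, 31806646 to 31810635), which overlaps with Foxc2 in vessel development and is also used in hair follicle and mesenchyme, was far more abundant. It had 711, 567 and 638 counts in ecko libraries 1 to 3 and 549, 687 and 612 in control libraries 1 to 3. The highest library was ecko 1 and the lowest control 1, and the groups lay across each other. The means were 36.2 ± 3.999 CPM in ecko and 34.7 ± 3.61 CPM in control libraries (SD, n = 3 each), with a log2 fold change of 0.06 ± 0.11 (SE; adjusted p 0.880). The fold had a 95% interval of 0.888 to 1.23. Per kilobase of transcript, Foxc1 was 14.7 to 21.2 times Foxc2 in the ecko libraries and 12.8 to 21.9 times in the controls. The Foxc1 length used for this, 5844 bases from GENCODE, exceeds the RefSeq span given above. A shorter length would raise these ratios.

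Piezo1 (Entrez 234839, chromosome 8, 122481698 to 122551329) encodes a mechanically opened cation channel, whose loss in humans gives a generalized lymphatic dysplasia. It had 1985.85, 2152.05 and 1956.34 expected counts in ecko libraries 1 to 3 and 2106.6, 2198.1 and 1925.9 in control libraries 1 to 3. The means were 115 ± 5.12 CPM in ecko and 117 ± 5.43 CPM in control libraries (SD, n = 3 each), a log2 fold change of -0.02 ± 0.06 (SE; adjusted p 0.922). Its 95% interval of the fold, 0.893 to 1.08, was the narrowest of the 9 genes, and the related sensory channel gene Piezo2 had 17.2 ± 0.108 CPM in ecko and 15.8 ± 0.133 CPM in control libraries. Piezo2 had all 3 ecko libraries above the controls and did not pass (log2 fold change 0.12 ± 0.09, SE; adjusted p 0.696).

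Piezo1 was the only one of the 9 genes with fractional values, and its fractions matched those of a neighbour. Ctu2, a gene for a tRNA-modifying enzyme subunit, is annotated on the opposite strand at 122476068 to 122483092 and overlaps the end of Piezo1; it was looked up after its values were seen. Of the 8170 words of 50 bases in the longest Piezo1 transcript, 13.2% also occur, reversed, in Ctu2 transcripts. Ctu2 had 227.15, 268.95 and 262.66 expected counts in ecko libraries 1 to 3 and 335.4, 325.9 and 303.1 in control libraries 1 to 3. The sum of both genes was a whole number in every library, 2213, 2421 and 2219 in ecko and 2442, 2524 and 2229 in control libraries 1 to 3. Reads had thus been divided between these 2 opposite-strand genes. The strand setting of the counting is not given, and reads of the shared stretch cannot be assigned to either gene here. With both genes summed the log2 fold change was -0.06 ± 0.06 (SE; adjusted p 0.785). For Ctu2 itself the 3 ecko libraries lay below the lowest control, and it did not pass (-0.33 ± 0.11, SE; adjusted p 0.470).

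**Figure D2:**
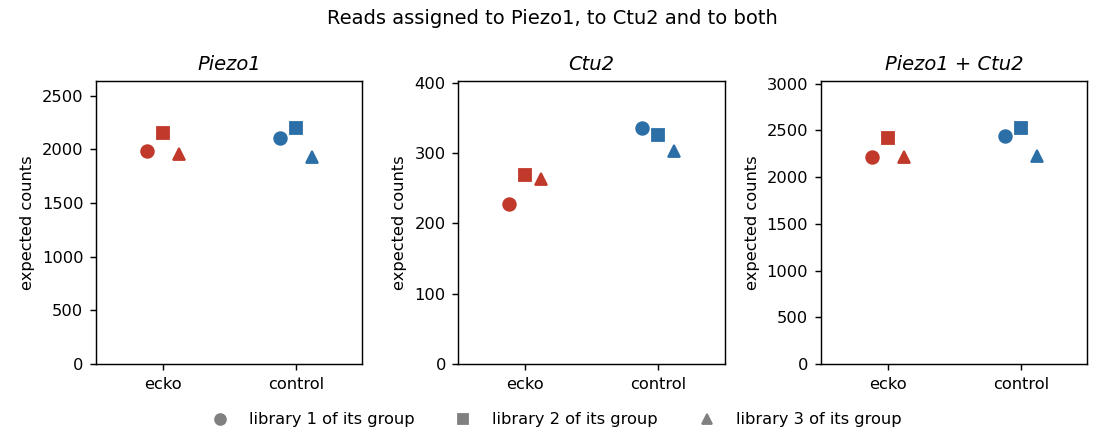
Expected counts of Piezo1, of its opposite-strand neighbour Ctu2 and of their sum, 1 symbol per library, ecko in red and control in blue, with axes from 0. Ctu2 has 227.15 to 268.95 counts in ecko and 303.1 to 335.4 in control libraries, while Piezo1 and the sum overlap between the groups.

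Itga9 (Entrez 104099, chromosome 9, 118606709 to 118901003) encodes integrin alpha9, the receptor by which valve cells organise a fibronectin matrix. It had 53.1, 50.3 and 54.2 CPM in ecko libraries 1 to 3 and 56.5, 53.5 and 57.2 CPM in control libraries 1 to 3. Both other ecko libraries lay under all controls, while ecko 3 lay above control 2. The log2 fold change was -0.09 ± 0.07 (SE; adjusted p 0.719), with a 95% interval of the fold of 0.848 to 1.05. Its beta subunit gene Itgb1 had 634 ± 27.3 CPM in ecko and 649 ± 42.6 CPM in control libraries (SD, n = 3 each), a log2 fold change of -0.03. Of 8 genes for its ligands, 0 passed the test, 7 had a higher mean in ecko and 1 a lower one, and the median was 0.08, against -0.002 over all genes. Fibronectin itself, Fn1, had 1437 ± 45.5 CPM in ecko and 1351 ± 115 CPM in control libraries (SD, n = 3 each; log2 fold change 0.09). Svep1, a matrix ligand needed for lymphatic growth, had 64.6 ± 0.506 and 60.0 ± 3.04 CPM (0.11; adjusted p 0.643). The ecko libraries of Svep1 lay above all controls, as did those of Npnt (0.07), where 7.55% of all genes had ecko clear above control; Npnt was named after its values were seen. Thbs1 had a log2 fold change of 0.13 and Vcam1, the ligand with a lower mean, -0.18 (adjusted p 0.710 and 0.634).

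Gja1 (Entrez 14609, chromosome 10, 56377300 to 56390419), the gene of the gap junction protein found on the upstream side of valve leaflets, which also couples keratinocytes, was the most abundant of the 9. It had 921, 882 and 877 CPM in ecko libraries 1 to 3 and 861, 914 and 798 CPM in control libraries 1 to 3. Control 3 was the lowest, and the remaining controls lay on both sides of ecko 2. The log2 fold change was 0.06 ± 0.07 (SE; adjusted p 0.810), and the 95% interval of the fold was 0.938 to 1.16. Among the other connexins tested, 0 of 13 passed, 6 had a higher mean in ecko and 7 a lower one, with a median of -0.04; 4 more were in the table with too few reads. The endothelial connexin genes were among those with the widest spread. Gja4, found on the downstream side of the leaflets and in arteries, had 139, 110 and 135 counts in ecko libraries 1 to 3 and 170, 175 and 74 in control libraries 1 to 3, so control 3 lay under the other 5 libraries (log2 fold change -0.11 ± 0.28, SE; adjusted p 0.918). Gja5, of arterial endothelium, had 238, 267 and 182 counts in ecko and 268, 239 and 121 in control libraries 1 to 3 (0.14 ± 0.27, SE; adjusted p 0.891).

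Of the other connexins measured, Gjb2 had 175 ± 6.21 CPM in ecko and 190 ± 28.9 CPM in control libraries (SD, n = 3 each; log2 fold change -0.12). Gjc1, a connexin of vascular muscle and heart, had -0.10.

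The core planar polarity genes align valve cells and, in the epidermis, hair follicles. Celsr1 (Entrez 12614, chromosome 15, 85898758 to 86034223), an atypical cadherin that couples neighbouring cells, had 88.8, 80.6 and 88.7 CPM in ecko libraries 1 to 3 and 84.5, 86.8 and 106 CPM in control libraries 1 to 3. Control 3 was the highest, and the remaining controls lay within the range of ecko. The log2 fold change was -0.10 ± 0.09 (SE; adjusted p 0.741), with a 95% interval of the fold of 0.812 to 1.07, and it was 0.01 without control 3. Vangl2 (Entrez 93840, chromosome 1, 172000960 to 172027318), its membrane partner, had 71.2, 68.0 and 70.5 CPM in ecko and 71.0, 72.9 and 64.2 CPM in control libraries 1 to 3. Here control 3 was the lowest and control 2 the highest. The log2 fold change of 0.01 ± 0.07 (SE; adjusted p 0.968) was the closest to 0 of the 9 genes, and the 95% interval of the fold was 0.906 to 1.12.

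The paralogs of both genes were also measured. Celsr2 had 128 ± 5.22 CPM in ecko and 126 ± 7.62 CPM in control libraries, and Vangl1 had 56.1 ± 1.07 and 58.2 ± 9.98 CPM (SD, n = 3 each). Their log2 fold changes were 0.02 and -0.05. Celsr3, mainly a neuronal gene, had 14, 12 and 12 counts in ecko and 23, 18 and 15 in control libraries 1 to 3. Its ecko libraries all lay below the controls, and it did not pass (log2 fold change -0.55 ± 0.30, SE; adjusted p 0.611).

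FAT4 and DCHS1 are giant cadherins that bind each other across cell borders, and FAT4 is mutated in a human lymphatic dysplasia, Hennekam syndrome. Fat4 (Entrez 329628, chromosome 3, 38884667 to 39011992) had 68.6, 65.6 and 66.1 CPM in ecko libraries 1 to 3 and 64.1, 72.5 and 76.7 CPM in control libraries 1 to 3. Control 1 lay under all ecko libraries and the other controls above them. The log2 fold change was -0.09 ± 0.08 (SE; adjusted p 0.732), with a 95% interval of the fold of 0.835 to 1.06, and it was -0.03 without control 3 and -0.16 without control 1. Of the words of 50 bases in its longest transcript, 6.93% also occur, reversed, in the antisense RNA C230034O21Rik and 1.46% in Gm43539. Reads were divided between the opposite-strand genes Piezo1 and Ctu2, so strand did not keep those apart. Reads of these antisense RNAs may therefore be counted in Fat4.

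Dchs1 (Entrez 233651, chromosome 7, 105752989 to 105788355) had 43.7, 47.7 and 52.4 CPM in ecko libraries 1 to 3 and 49.4, 52.9 and 53.5 CPM in control libraries 1 to 3. It had the smallest unadjusted edgeR p of the 9 genes, 0.190, with a log2 fold change of -0.12 ± 0.08 (SE; adjusted p 0.689). Ecko 1 and 2 lay under all controls, and ecko 3 lay above control 1. The 95% interval of the fold, 0.813 to 1.05, takes in no change. It was -0.06 without ecko 1 and -0.18 without ecko 3. On the opposite strand, 4.31% of the words of 50 bases in its longest transcript also occur in the transcribed pseudogene Gm15645. Reads of that pseudogene may likewise be counted in Dchs1. The genes whose log2 CPM followed Dchs1 most closely over the 6 libraries, among 13170 genes with a mean of at least 50 counts, were Apex1, Nelfe and Serf1. Their root mean square differences from it were 0.023, 0.024 and 0.026, and their own log2 fold changes were -0.12, -0.13 and -0.09, none past the test.

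Relatives of the cadherin pair gave the same picture of small differences. Fat1, an epidermal and dermal gene, had 224 ± 4.04 CPM in ecko and 231 ± 20.2 CPM in control libraries, and Fat2, a keratinocyte gene, had 79.5 ± 2.69 and 74.7 ± 3.74 CPM (SD, n = 3 each). Fat3 had 8.34 ± 2.401 and 7.64 ± 0.767 CPM, and Dchs2 had 16.9 ± 1.89 and 15.5 ± 1.71 CPM. Fjx1, the mouse relative of the fly kinase gene four-jointed that tunes Fat and Dachsous binding in the fly, had 10.7 ± 1.12 CPM in ecko and 11.3 ± 1.32 CPM in control libraries. Log2 fold changes of these 5 genes lay between -0.08 and 0.13, and their groups overlapped.

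**Figure D3:**
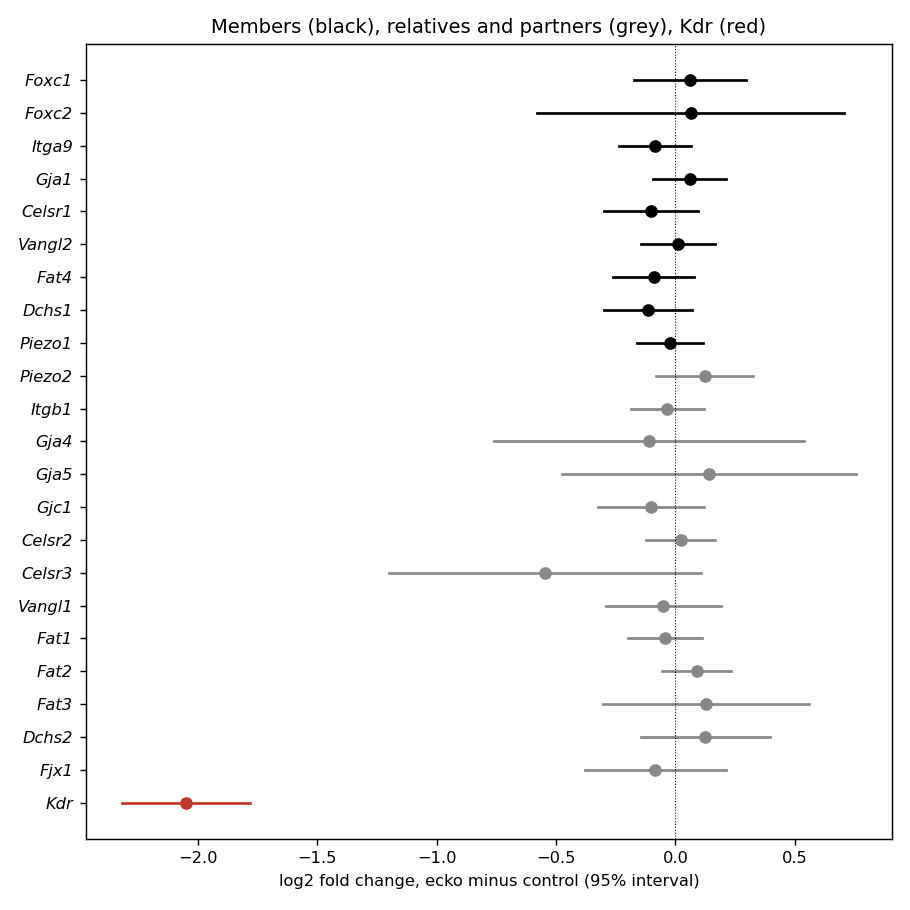
Log2 fold change, ecko minus control, with its 95% interval, for the 9 genes in black, their paralogs and partners in grey and Kdr in red. Every interval except that of Kdr, at -2.05, includes 0, and Foxc2, Gja4, Gja5 and Celsr3 have the widest ones.

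Levels between genes are compared per kilobase of the longest protein-coding transcript. Gja1 led with 281 ± 7.55 CPM per kb in ecko and 269 ± 18.2 CPM per kb in control libraries (SD, n = 3 each). Piezo1 followed with 14.0 ± 0.623 in ecko and 14.2 ± 0.661 in control libraries, then Vangl2 with 10.7 ± 0.258 and 10.6 ± 0.697. Celsr1 (7.91 and 8.48 CPM per kb in ecko and in control libraries) and Itga9 (7.49 and 7.94) overlapped over the 6 libraries, as did Dchs1 (4.46 and 4.83) and Fat4 (4.14 and 4.41), while Foxc1 lay between these pairs with 6.20 and 5.94. Foxc2 was last with 0.360 ± 0.055 in ecko and 0.344 ± 0.069 in control libraries. With these lengths the order held in both groups. The GENCODE length of Foxc1, 5844 bases, exceeds its RefSeq span. A shorter length would raise its value per kilobase, so its place in the order is uncertain. Among relatives, Celsr2 (12.1 CPM per kb in ecko, 11.9 in control libraries) exceeded Celsr1, and Fat1 (15.1 and 15.6) exceeded Fat4, in the means of both groups.

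**Figure D4:**
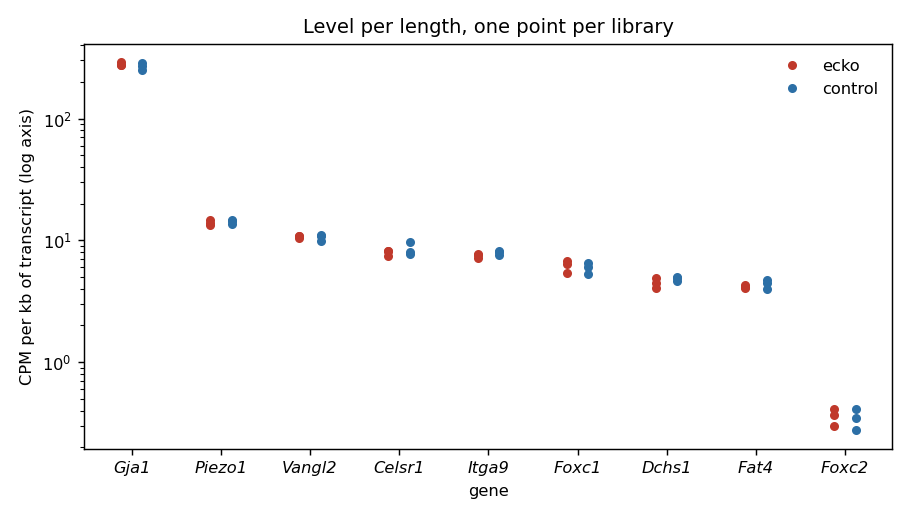
CPM per kilobase of the longest protein-coding transcript on a log axis, 1 point per library, ecko in red to the left of control in blue, genes in order of their mean. Gja1 lies near 281, 7 genes lie between about 4.14 and 14.2, and Foxc2 lies near 0.360.

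Which library was highest or lowest differed among the 9 genes. Control 3 was the highest of the 6 libraries for Itga9, Celsr1, Fat4 and Dchs1 and the lowest for Foxc2, Gja1 and Vangl2, so it held 7 of the 18 highest and lowest places. Ecko 1 held 4, control 1 held 3, ecko 2 and control 2 held 2 each, and ecko 3 held 0. The highest library was 1.10 times the lowest for Piezo1, 1.31 times for Celsr1 and 1.5 times for Foxc2. In the lymphatic regulator Prox1 control 3 was low as well, with 100 counts against 192 and 200 in the other controls and 173 to 209 in ecko. The sum of the lymphatic endothelial markers was instead highest in control 3, at 505 CPM against 438.5 and 442.2 CPM in the other controls. This sum gives abundant genes the most weight. As a mean of log2 CPM, the same markers had 4.063 in control 3, 4.026 in control 1 and 4.094 in control 2. By that measure control 3 was not the highest. Skeletal muscle markers were low in control 3, and their part in the places held by this library was not tested. With a muscle covariate, 0 of the 9 genes passed the test.

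**Figure D5:**
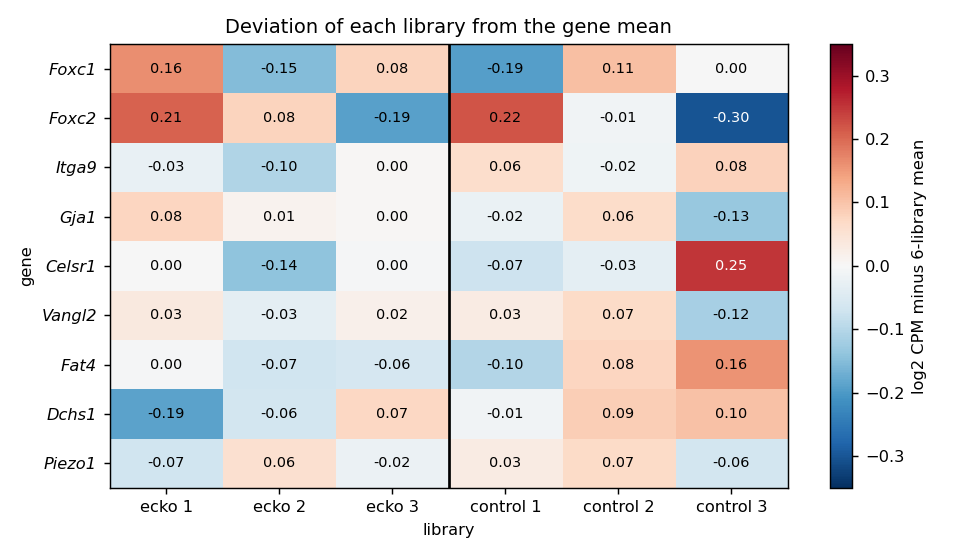
Log2 CPM of each library minus the gene's mean over the 6 libraries, ecko libraries to the left of the line and control libraries to the right. Control 3 departs furthest for Celsr1 (0.25) and Foxc2 (-0.30), and no row separates ecko from control.

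A wider list of other lymphatic valve genes gave 0 of 37 past the test. In that list 15 genes had a higher mean in ecko and 22 a lower one, with a median log2 fold change of -0.04, and 5 had an unadjusted edgeR p under 0.05, where 9.01% of all genes did. Lower in ecko without overlap were 5 genes, against 8.11% of all genes in that direction. These were the Notch ligand gene Dll4, the junction genes Cdh5, Pecam1 and Ctnnb1 and the receptor gene Tie1. Dll4 had 8.30 ± 1.26 CPM in ecko and 11.8 ± 1.78 CPM in control libraries, and Cdh5 had 96.8 ± 4.45 and 116 ± 17.2 CPM (SD, n = 3 each). Their log2 fold changes were -0.50 and -0.26, and Tie1 had -0.21, Pecam1 -0.17 and Ctnnb1 -0.08, with adjusted p of 0.447 to 0.723. Higher without overlap, as were 7.55% of all genes, were Svep1, described above, and Syk, a kinase of blood cells that keeps lymph and blood vessels apart, with 33.7 ± 0.460 CPM in ecko and 28.8 ± 3.70 CPM in control libraries (0.23; adjusted p 0.550). Pecam1 and Ctnnb1 were named after their values were seen.

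Markers of endothelium in general moved with those lower genes, and 3 of the 5 are themselves such markers. Of 18 pan-endothelial markers 14 had a lower mean in ecko, and 0 passed. Lower without overlap were 7, these 3 among them, against 8.11% of all genes. Their summed level was 639 to 676 CPM in ecko and 671 to 802 CPM in control libraries. Lymphatic endothelial markers summed to 437 to 460 CPM in ecko and 438 to 505 CPM in control libraries, with 12 of 12 detected. Of the 11 tested, 8 had a lower mean in ecko and 0 passed, with a median log2 fold change of -0.03. Lower without overlap was 1 of these, against 8.11% of all genes. Both endothelial sums overlapped between the groups, as did the marker sums of the other compartments. In RNA of whole skin, a difference in endothelial cell number and one in RNA per cell cannot be told apart. Basal keratinocyte markers (8 of 8) summed to 7134 to 7211 CPM in ecko and 7120 to 7765 CPM in control libraries, and fibroblast markers (9 of 9) to 39250 to 40330 and 36510 to 42600 CPM.

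Among 29 other planar polarity genes 0 passed, 14 had a higher mean in ecko and 15 a lower one, and the median log2 fold change was -0.002, as it was over all genes. None had an unadjusted edgeR p under 0.05. Scrib, a gene of epithelial polarity, had 80.4 ± 3.49 CPM in ecko and 88.5 ± 7.05 CPM in control libraries, with a log2 fold change of -0.14 and an adjusted p of 0.600. The Wnt receptor gene Ror2 had 31.9 ± 2.17 CPM in ecko and 37.3 ± 8.12 CPM in control libraries (SD, n = 3 each; -0.23, adjusted p 0.648). Dvl2, which relays Frizzled signals, had 33.0 ± 1.05 CPM in ecko and 30.1 ± 1.47 CPM in control libraries, and was the 1 gene of the list higher without overlap (0.13; adjusted p 0.640), while Celsr3 was the 1 gene lower without overlap.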

How the data were processed

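Poly(A) RNA of ear skin was sequenced in 3 ecko and 3 control libraries. The deposited values are expected counts for each gene; this unit was read from the values themselves, 10.1% to 10.4% of which are fractional in each library. RSEM 1.3.1, HISAT2 2.2.1, Bowtie2 2.4.5 and the build GRCm38.p6 are listed in the submitters' processing notes, with no role for each. Counts were rounded and tested with edgeR 4.0.16 in R 4.3.3 (filterByExpr with a minimum count of 10, TMM, robust glmQLFit, quasi-likelihood test, two-sided), with Benjamini-Hochberg adjustment over 14920 genes and a threshold of 0.05. The SE was taken from the log2 fold change and its F statistic, and 95% intervals use it with the t distribution of the fit. DESeq2 1.42.0, limma-voom 3.58.1, other filters and scaling, covariates, a replicate block and leaving out each library were alternatives. The fits were also run on simulated counts, and the outcome is not reported here. An exact permutation test of 3 against 3 cannot go below 0.1 and was not used. Reads carry no molecular identifiers, so counting error covers read sampling only. Positions come from RefSeq GRCm38.p6 (18353 of 18404 identifiers matched), and sequences and transcript lengths from GENCODE M21.

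The members and gene lists were chosen with earlier results of these data known. Genes named are the 9, Kdr, their paralogs and partners, the 4 smallest unadjusted p of each list, and the 3 genes closest in pattern to the member with the smallest p, apart from those said to be named after their values were seen. Gdf2, Gjd2 and Gje1 are not analysed here. Some connexin results are not reported here.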

Additional observations from a re-analysis of the deposited data

How the results depend on the processing

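None of the 9 genes, of the 37 other valve genes or of the 29 other polarity genes passed under any of the 16 alternatives, and the smallest adjusted p reached by any of the 9 was 0.428 (Fat4 without control 1). The number of genes called over the whole table did depend on the model. It was 112 with DESeq2, 98 with the replicate block, 55 with the covariate of skeletal muscle, 2 with that of Y-linked genes and 1 to 3 with 1 library left out, the 3 being without ecko 3, against 1 as reported. The labels do not say whether replicate numbers pair the libraries. Across 14185 genes, same-numbered libraries had deviations from the group mean that correlated at 0.182, -0.293 and -0.092. The highest value, 0.405, was between ecko 3 and control 2, both almost without Y-linked reads. Deviations from a group mean sum to 0 within the group, so these values cannot decide whether libraries were paired. The block result is given only here. Kdr stayed between -1.945 and -2.144 with 1 library left out and passed under every alternative. The median of the 9 genes ran from -0.053 (without ecko 2) to 0.0027 (without control 2). Itga9, Fat4 and Dchs1 kept a value below 0 and Gja1 above 0 under all alternatives. Other genes, none of them called, changed sign around 0. With the muscle covariate Foxc2 was -0.018, Vangl2 -0.012 and Vangl1 0.023, and with the lymphatic endothelial covariate Vangl2 was -0.0013 and Vangl1 0.0051. With 1 library left out, log2 fold changes ran from -0.018 to 0.148 for Foxc1, from -0.066 to 0.211 for Foxc2, from -0.163 to 0.011 for Celsr1, from -0.036 to 0.045 for Vangl2 and from -0.056 to 0.0032 for Piezo1. They ran from -0.027 to 0.062 for Celsr2, from -0.131 to 0.105 for Vangl1, from -0.097 to 0.033 for Fat1, from -0.134 to 0.254 for Fat3, from -0.400 to 0.067 for Gja4, from -0.121 to 0.356 for Gja5, from -0.170 to 0.0049 for Gjc1 and from -0.069 to 0.026 for Itgb1. For all of these the cause was not tested. Summing Piezo1 with Ctu2 was chosen after seeing the data. The interval of the observed Foxc2 fold, 0.670 to 1.63, is not a limit of detection. The smallest change that the test would call at the depth of Foxc2 is not given here.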
